A study of Mus musculus with 6 samples.

Results

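The 10 genes of fatty acid uptake and lipid droplets described here are Lpl, Cd36, Fabp3, Fabp4, Plin2, Plin4, Pnpla2, Angptl4, Dgat1 and Dgat2. They were measured in mouse kidney epithelium with and without the fumarate hydratase gene Fh1, whose product converts fumarate to malate in the tricarboxylic acid cycle. They were chosen by name, with earlier results of these data known, and all 10 were represented among the 18193 genes measured. In all, 21 of 45037 probe sets were annotated to exactly 1 of them. A gene's brightest probe set, by its mean over the 6 arrays, stands for it, and the other 11 probe sets are given beside it. The Fh1 knockout group is cystic kidney epithelium (3 arrays), and the wild-type group is kidney epithelium of disease-free littermates matched for sex (3 arrays). The tissue was macro-dissected, so each array holds bulk RNA. The sources used here do not give the allele, any Cre driver, the strain or the age of the mice. Every knockout sample is described as cystic and no wild-type sample is, so loss of Fh1 and the cystic state cannot be told apart.

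Kidney tubules burn fatty acids as a main fuel, and fatty acids that are not burned are stored as triglyceride in lipid droplets. Lipoprotein lipase (Lpl) frees fatty acids from circulating lipoproteins, the membrane protein CD36 helps them into cells, and fatty acid binding proteins carry them through the cytosol. Diacylglycerol acyltransferases complete triglyceride synthesis, perilipins coat the droplet, and the lipase ATGL, encoded by Pnpla2, begins its breakdown.

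Values are RMA expression levels on the log2 scale. RMA subtracts background, brings arrays to 1 distribution and combines the probes of each set. It gives no detection call, and differences of dim genes come out too small. Medians of the 6 arrays lay between 6.20 and 6.25. Fh1 itself read 11.54 to 11.61 in the knockout and 12.22 to 12.41 in the wild-type, 1.67-fold lower (limma adjusted p = 0.000396), and whether its probe set lies in the deleted stretch is not known here. The epithelial cadherin Cdh16 averaged 13.10 in the knockout and 13.15 in the wild-type, and of 6 kidney epithelium markers 5 were higher in the knockout and none lower. Over all genes limma called 49.2% at an adjusted p under 0.05, 21.6% higher and 27.7% lower in the knockout. Lower genes made up 56.2% of the calls, 67.0% after median-centring of each array and 44.2% among the brighter genes. All genes together had a median log2 fold change of -0.11, and of -0.19 after that centring. Knockout 3 and wild-type 2 stood apart from the other arrays of their group in adipocyte markers (given beside Fabp4), knockout 3 also in fibroblast markers, and results that rest on them are given with and without them.

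Of the 10 genes, 5 were called: Plin2 was higher in the knockout, and Lpl, Fabp3, Dgat2 and Angptl4 were lower. The share called over all genes was 49.2%, and a count of 5 in 10 is close to that background. The members' median log2 fold change was -0.54, against -0.11 over all genes. The groups did not overlap for 6 members, 1 with all knockout values above the wild-type values and 5 below. Over all genes 62.9% did not overlap, 25.7% with the knockout above and 37.1% below. Cd36, Fabp4, Plin4, Pnpla2 and Dgat1 were not called, although the groups did not overlap for Pnpla2. The plot of the values by array shows both patterns.

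**Figure D1:**
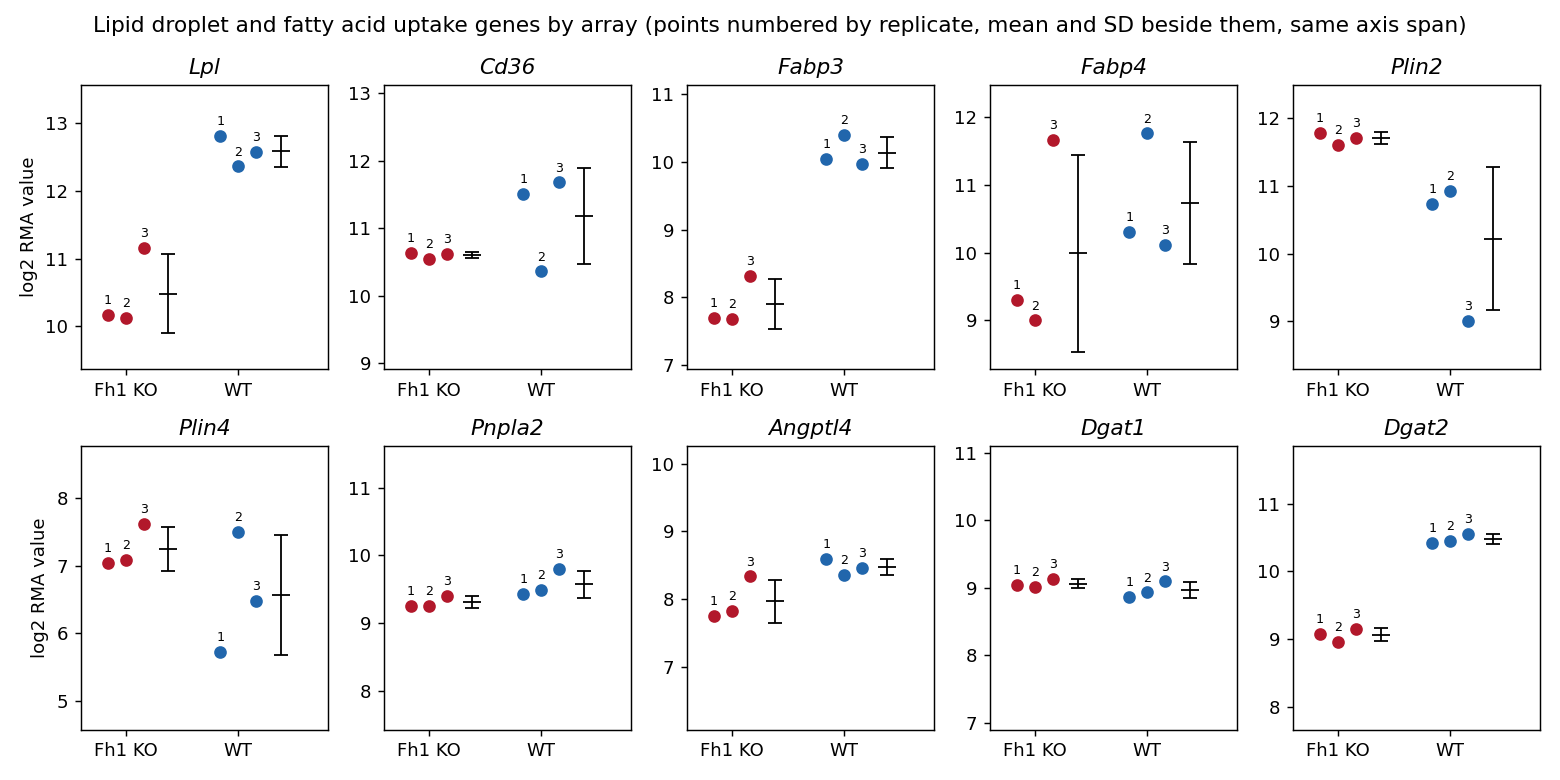
Log2 RMA value (vertical axis) of each of the 10 genes on the 3 Fh1 knockout (red) and 3 wild-type (blue) arrays, numbered by replicate, with the mean and SD beside the points. Lpl, Fabp3 and Dgat2 separate the groups widely, Plin2 is tight in the knockout and spread in the wild-type, and knockout 3 sits above the other knockout arrays for Lpl, Fabp3, Fabp4, Plin4 and Angptl4.

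Lpl, the secreted lipase that acts at the capillary wall, was 4.30-fold lower in the knockout. It read 10.16, 10.12 and 11.16 in knockout 1, 2 and 3, against 12.82, 12.36 and 12.58 in wild-type 1, 2 and 3 on the log2 scale. The highest knockout value lay below the lowest wild-type value, and knockout 3 was 1.02 above the mean of the other knockout arrays. The group means were 10.48 ± 0.59 in the knockout and 12.59 ± 0.23 in the wild-type (SD, n = 3 each). Their difference was -2.11 on the log2 scale (SE 0.27, limma adjusted p = 0.000766). The other Lpl probe set was also called lower, at -2.21 (limma adjusted p = 0.00101). Over all 45037 probe sets 44% were called and 23.4% were lower. In bulk tissue, fewer cells that make a transcript and less of it per cell cannot be told apart, here and below.

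Angptl4, a secreted inhibitor of lipoprotein lipase and a known target of PPAR and HIF factors, was 1.42-fold lower. Its values were 7.75, 7.82 and 8.33 in the knockout arrays, against 8.59, 8.36 and 8.46 in the wild-type arrays. Knockout 3 came close to the lowest wild-type value, wild-type 2, without reaching it. Angptl4 thus had a log2 fold change of -0.50 (SE 0.16, limma adjusted p = 0.0328). The call ended without knockout 1 (adjusted p = 0.109), knockout 2 (adjusted p = 0.105), wild-type 1 (adjusted p = 0.0893) or wild-type 3 (adjusted p = 0.0702). The second Angptl4 probe set lay at the 0.786th percentile of all probe sets by mean signal and was not called (log2 fold change -0.09), and the mean of both gave -0.30 with no call (adjusted p = 0.0614). The lipase and its inhibitor were both called lower.

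Cd36, the fatty acid translocase and scavenger receptor, was not called in its brightest probe set. It read 10.64, 10.55 and 10.62 in the knockout, against 11.50, 10.36 and 11.68 in the wild-type. The knockout arrays lay close together, while wild-type 2 fell below all of them and the other wild-type arrays stood above. Its log2 fold change of -0.58 had a 95% interval of -1.29 to 0.14 (limma adjusted p = 0.150). Leaving out 1 wild-type array moved it both ways: it was -0.99 and called without wild-type 2 (limma adjusted p = 0.000313), -0.33 without wild-type 3 (adjusted p = 0.401) and -0.42 without wild-type 1 (adjusted p = 0.346). The other Cd36 probe sets gave -0.88 (not called, adjusted p = 0.0686) and -1.07 (called lower, adjusted p = 0.00665), and the mean of all 3 gave -0.84 with adjusted p = 0.0439. In the probe set called, knockout values of 8.04, 7.86 and 7.98 stood against wild-type values of 9.43, 8.46 and 9.21, with wild-type 2 again the lowest of its group.

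Fabp3, the heart-type fatty acid binding protein, had the largest change of the 10, at 4.73-fold lower in the knockout. The knockout arrays read 7.70, 7.68 and 8.32 and the wild-type arrays 10.05, 10.40 and 9.97. Even the highest knockout array, knockout 3, lay well below every wild-type array. The difference was -2.24 on the log2 scale (SE 0.19, limma adjusted p = 0.000123). A dimmer Fabp3 probe set was lower by less (log2 fold change -0.46, limma adjusted p = 0.00953), so the mean of the pair gave -1.35. The upstream sequence of Fabp3 is shown because it is the member with the largest fall for which RefSeq (GRCm38.p6) gave a promoter, as it did for 5 of the 10. The window is the 250 bases before the annotated gene, chr4:130308488-130308737 on the plus strand.
Fabp3: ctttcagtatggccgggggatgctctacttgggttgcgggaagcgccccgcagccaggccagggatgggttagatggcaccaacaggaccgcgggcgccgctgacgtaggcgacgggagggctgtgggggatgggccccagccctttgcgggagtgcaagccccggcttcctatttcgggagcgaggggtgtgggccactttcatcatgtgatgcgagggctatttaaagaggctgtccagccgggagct
Capitals would mark matches on either strand to TATAAA, to AGGTCA (the hexamer read by nuclear receptors such as the PPARs), to ACGTG and GCGTG (the HIF core) and to TGACNNNGC (the core of the antioxidant element read by NRF2). The direct repeat of AGGTCA with 1 base between the copies, known as DR1, was searched too. None of these motifs occurs in this window. For comparison, the first 250 bases of each of 32851 RefSeq promoter entries were taken as windows. Those that hold each motif make up 12.4%, 14.0%, 16.6%, 28.2% and 10.2% of them, in the order given. DR1, which contains AGGTCA, is held by 0.0335%.

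Fabp4, the fatty acid binding protein of adipocytes, also made by capillary endothelium and macrophages, varied more between arrays of a group than between the group means. It read 9.31, 9.00 and 11.66 in the knockout, against 10.31, 11.76 and 10.12 in the wild-type. Knockout 3 and wild-type 2 were the high arrays and the groups overlapped. Its log2 fold change of -0.74 had a 95% interval of -2.41 to 0.93 (limma adjusted p = 0.406). The second bright Fabp4 probe set showed the same array pattern, with 8.80, 8.56 and 11.11 in the knockout and 9.59, 11.15 and 9.26 in the wild-type. None of the 4 Fabp4 probe sets was called. Without knockout 3 the log2 fold change was -1.58 (limma adjusted p = 0.0395), and without wild-type 2 it was -0.22 (adjusted p = 0.808). It was -0.40 without knockout 1 and -0.24 without knockout 2, with no call. With knockout 3 and wild-type 2 both left out, an alternative chosen after seeing the data, it was -1.06 (adjusted p = 0.00328).

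The adipocyte markers Adipoq and Cidec were high on the same arrays as Fabp4. Adiponectin, Adipoq, a hormone made by adipocytes, read 5.60, 4.32 and 10.30 in the knockout, against 6.65, 10.73 and 6.72 in the wild-type. Its value in knockout 2 lay below that array's lower quartile of 4.65. The droplet protein Cidec, also an adipocyte marker, read 4.51, 4.59 and 6.60 in the knockout, against 4.67, 6.51 and 4.50 in the wild-type. The adipokine resistin, Retn, was 8.88 in knockout 3, against 6.62 to 7.55 on the other arrays. Leptin, Lep, was 6.85 in wild-type 2, against 4.39 to 4.80 on the other arrays. Of 7 adipocyte markers listed, 4 were measured and 3 are not analysed here. None of the 4 was called with all arrays, and their summed level on the linear scale ran from 164 to 1853 in the knockout and from 300.5 to 2088 in the wild-type. With knockout 3 and wild-type 2 left out, 1 of the 4, Adipoq, was called lower (log2 fold change -1.73, limma adjusted p = 0.0170). Those arrays were the highest of their groups for Adipoq and were chosen after seeing the data, so this call is no independent test. The part of adipocyte RNA in the Fabp4, Lpl and Plin4 values was not tested.

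**Figure D2:**
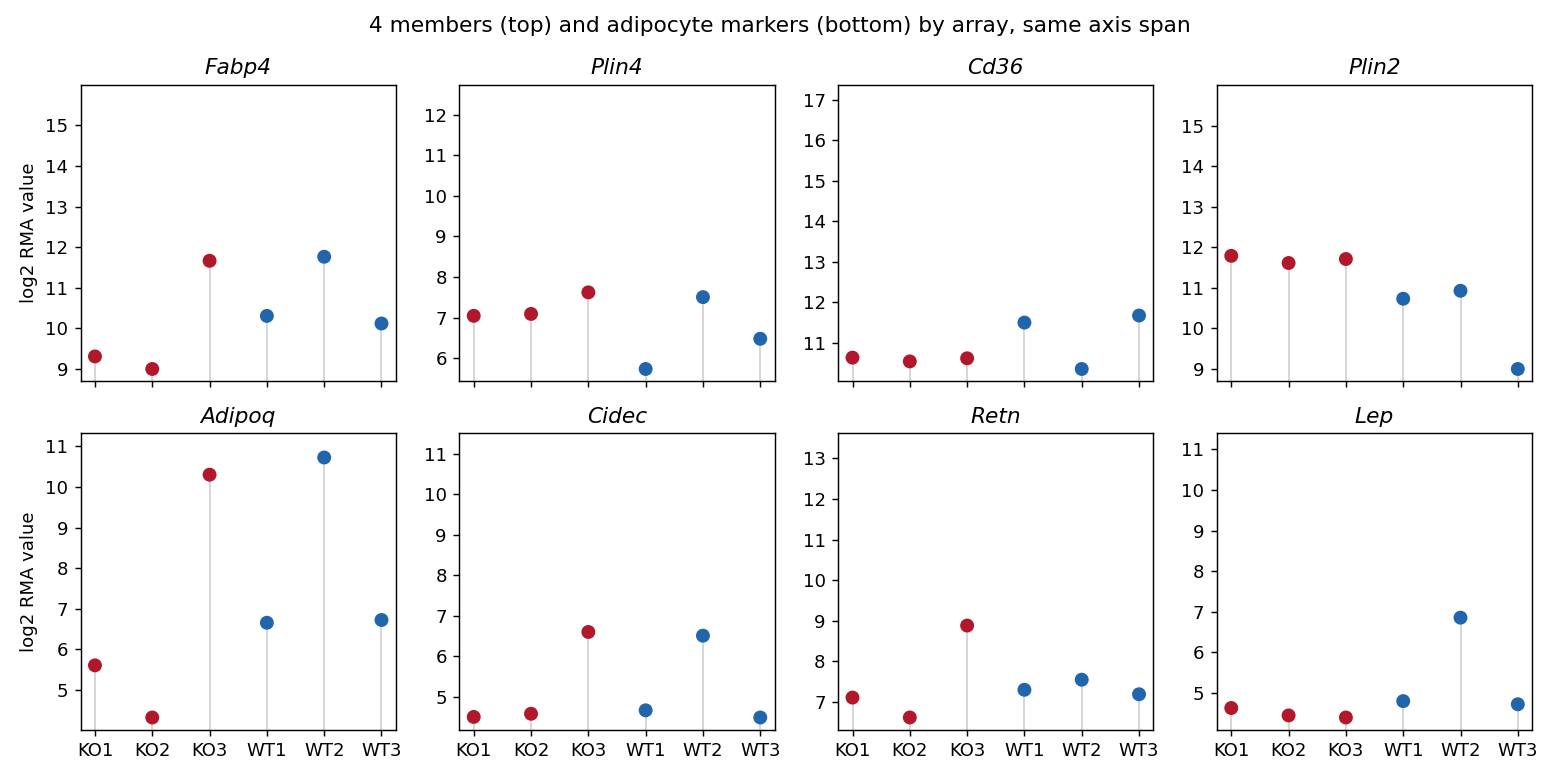
Log2 RMA value (vertical axis) on each array (horizontal axis, KO Fh1 knockout in red, WT wild-type in blue) of 4 members in the top row and 4 adipocyte markers in the bottom row, on axes of the same span. Fabp4, Adipoq and Cidec are high in knockout 3 and wild-type 2, Retn is high in knockout 3, Lep in wild-type 2, and Plin2 does not follow them.

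Plin2, the perilipin found on droplets of most cell types, was the member higher in the knockout, by 2.80-fold. It read 11.79, 11.61 and 11.71 in the knockout, against 10.73, 10.93 and 9.00 in the wild-type. All knockout values lay above all wild-type values, and wild-type 3 stood well below the other wild-type arrays. The means were 11.70 ± 0.09 in the knockout and 10.22 ± 1.06 in the wild-type (SD, n = 3 each). On the log2 scale the rise was 1.48 (SE 0.45, 95% interval 0.44 to 2.53, limma adjusted p = 0.0285). Without wild-type 3 it was 0.87 with a smaller adjusted p of 0.00108. The call ended without knockout 1 (adjusted p = 0.0776), knockout 2 (adjusted p = 0.0673) or knockout 3 (adjusted p = 0.0725), with log2 fold changes of 1.44 to 1.53, and with a trended robust prior (adjusted p = 0.0749). Plin2 has 1 probe set, so no second probe set checks it. With knockout 3 and wild-type 2 left out, a setting chosen after seeing the data, it was called at 1.83 (adjusted p = 0.0344).

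The upstream sequence of Plin2 is shown as that of the member that rose. The window is the 92 bases of the RefSeq (GRCm38.p6) promoter entry that lie before the annotated gene, chr4:86670218-86670309 on the minus strand, with matches to the motifs above in capitals.
Plin2: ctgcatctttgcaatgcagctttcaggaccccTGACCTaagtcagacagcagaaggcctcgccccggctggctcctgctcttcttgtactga
It holds 1 match, to AGGTCA, which lies on the other strand and begins at base 33 from the 5′ end of the run. Such a match is present in 5.32% of RefSeq promoter windows of that length. The other motifs were not found in the Plin2 window. The RefSeq windows are the first 92 bases of each promoter entry, which need not lie directly before a gene. Of such windows 4.88% hold TATAAA, 5.54% hold ACGTG, 10.1% hold GCGTG, 2.99% hold TGACNNNGC and 0.00304% hold DR1. A match is a description of the letters only.

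Plin4, a perilipin of adipocytes and muscle, was not called. It read 7.04, 7.09 and 7.62 in the knockout, against 5.73, 7.50 and 6.48 in the wild-type. Wild-type 2 lay inside the knockout range, and the other wild-type arrays lay below it. Its log2 fold change of 0.68 had a 95% interval of -0.25 to 1.61 (limma adjusted p = 0.187). It was 0.26 without wild-type 1 (adjusted p = 0.516), 0.50 without knockout 3 (adjusted p = 0.405) and 1.15 without wild-type 2 (adjusted p = 0.00993). With knockout 3 and wild-type 2 both left out, a setting chosen after seeing the data, it was 0.96 (adjusted p = 0.0243). The change of Plin2 exceeded that of Plin4 by 0.80, which did not pass an exact permutation test over the arrays (two-sided p = 0.40, where 0.10 is the smallest that 3 against 3 allows). With 1 array left out this difference ran from 0.24 (without wild-type 3) to 1.48 (without wild-type 1).

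Dgat2 and Dgat1 encode diacylglycerol acyltransferases of different protein families that catalyse the same reaction. Dgat2 was 2.66-fold lower in the knockout. It read 9.08, 8.96 and 9.15 in the knockout, against 10.42, 10.45 and 10.56 in the wild-type. The spread within groups was small beside the gap between them (SD 0.09 in the knockout and 0.07 in the wild-type, n = 3 each). The difference was -1.41 on the log2 scale (SE 0.09, limma adjusted p = 3.57e-05), and the other Dgat2 probe set gave -1.32 with adjusted p = 0.000131.

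Dgat1 read 9.04, 9.01 and 9.14 in the knockout, against 8.87, 8.93 and 9.09 in the wild-type. The groups overlapped and the log2 fold change was 0.10, with a 95% interval of -0.11 to 0.31 and a limma adjusted p of 0.377. With 1 array left out it ran from 0.051 to 0.16, with no call, and its dimmer probe set gave 0.08. Taken within each array, the log2 value of Dgat2 minus that of Dgat1 ranged from -0.05 to 0.04 in the knockout and from 1.46 to 1.55 in the wild-type. These ranges do not overlap, and the difference of -1.51 had an exact permutation p of 0.10, the smallest the design allows (two-sided, 0.30 after Benjamini-Hochberg over 3 pairs). The same comparison of Fabp3 with Fabp4 gave -1.50 (exact permutation p = 0.20, 0.30 adjusted), and -0.87 without knockout 3. These 3 pairs were chosen after their values were seen.

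Pnpla2, the triglyceride lipase ATGL, read 9.26, 9.25 and 9.40 in the knockout, against 9.42, 9.49 and 9.79 in the wild-type. The groups did not overlap, by a narrow margin between knockout 3 and wild-type 1. A log2 fold change of -0.27 (SE 0.11) was not called (limma adjusted p = 0.0867). After median-centring of each array it was -0.34 and was called (adjusted p = 0.0381), and without wild-type 3 it was -0.15 and was not (adjusted p = 0.172). The second, dim Pnpla2 probe set gave -0.26 (adjusted p = 0.115).

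**Figure D3:**
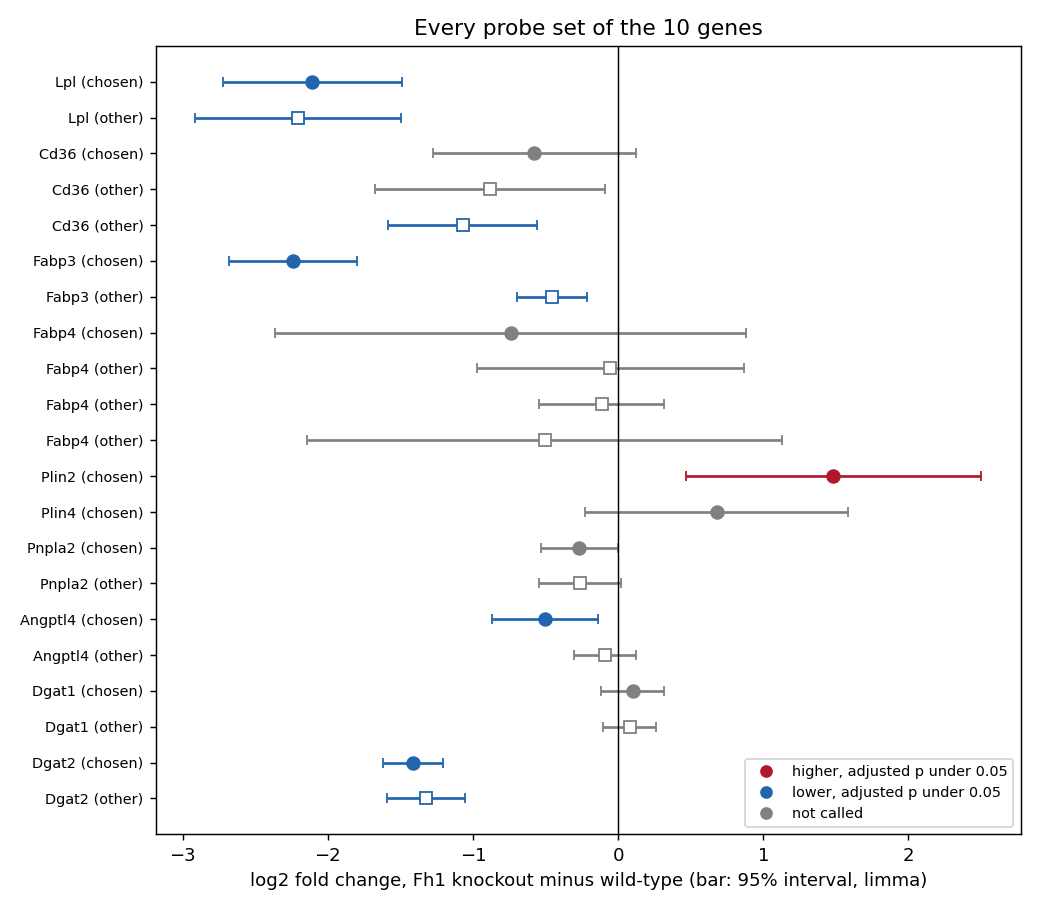
Log2 fold change (horizontal axis, Fh1 knockout minus wild-type, bars 95% interval from limma) of all 21 probe sets of the 10 genes. Filled circles are the probe sets chosen, open squares the others, and colour gives the call over all probe sets. Of the other 11 probe sets, 4 are lower in the knockout (Lpl, Cd36, Fabp3 and Dgat2), none is higher and 7 are not called.

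Knockout 3 held the highest knockout value for 8 of the 10 members, against 33.7% of all genes. Its excess over the mean of knockout 1 and 2 was 2.51 for Fabp4, 1.02 for Lpl, 0.63 for Fabp3, 0.55 for Plin4 and 0.55 for Angptl4. For Plin2 and Cd36 it was 0.01 and 0.03. Many markers of other cell types, though not of all, were also highest in knockout 3 among the knockout arrays. They were 8 of 8 fibroblast, 9 of 10 distal nephron, 11 of 14 macrophage, 9 of 12 proximal tubule and 9 of 13 endothelial markers. The same held for 3 of 4 adipocyte, 4 of 4 brown adipocyte, 3 of 5 podocyte and 4 of 6 kidney epithelium markers. Of 5 striated muscle markers 0 were highest in knockout 3, and 4 were highest in knockout 2. The fibroblast matrix genes Lum and Dcn, named after their values were seen, read 6.40, 6.90 and 9.29 (Lum) and 9.93, 10.59 and 11.92 (Dcn) in knockout 1, 2 and 3. The summed fibroblast level was 15204 in knockout 3, against 7065 in knockout 1 and 10509 in knockout 2. The part of these markers in the knockout 3 values was not tested. Leaving out knockout 3 therefore made the falls of Lpl (-2.45), Fabp3 (-2.45) and Angptl4 (-0.69) larger. The calls of Lpl, Fabp3 and Dgat2 held whichever array was left out, with log2 fold changes of -2.45 to -1.92, -2.45 to -2.11 and -1.46 to -1.36.

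**Figure D4:**
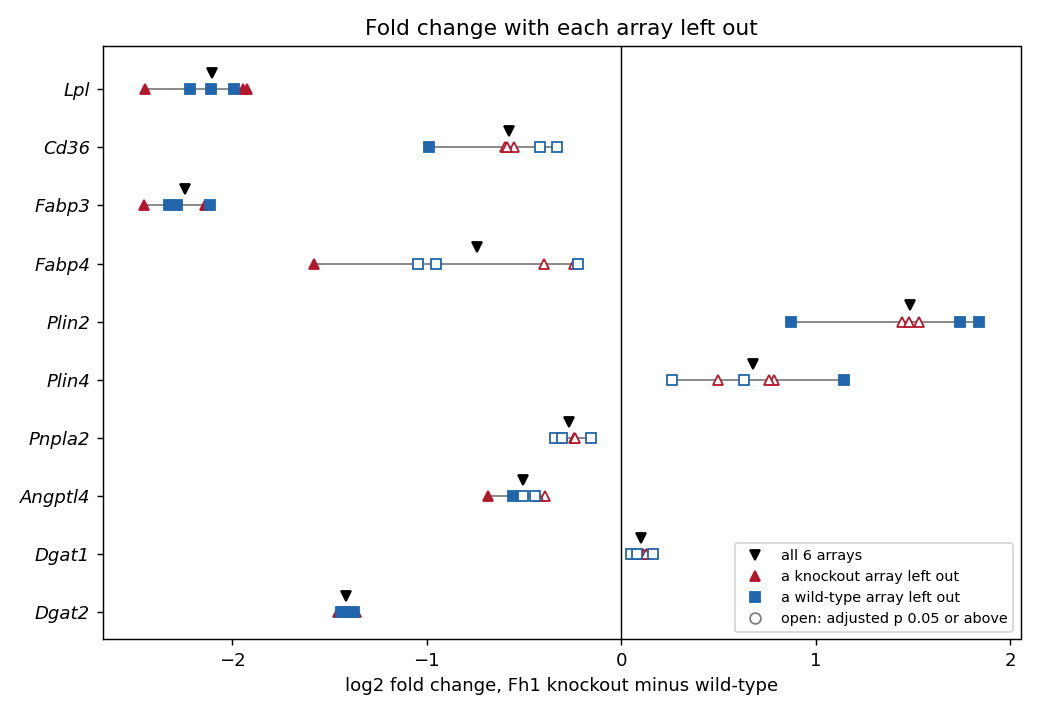
Log2 fold change (horizontal axis, Fh1 knockout minus wild-type) of each gene with all 6 arrays (black) and with each knockout (red triangles) or wild-type (blue squares) array left out, open where the limma adjusted p was 0.05 or above. Lpl, Fabp3 and Dgat2 stay filled throughout, Plin2 opens when any knockout array is left out, and Fabp4, Cd36 and Plin4 are filled for a single array left out.

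Other genes of the same pathways were read from 6 lists of 61 genes, of which 56 were measured and 5 were not analysed here. Of the 56, 11 were higher in the knockout, 28 lower and 17 not called, that is 19.6% higher and 50% lower. Over all genes 21.6% were higher and 27.7% lower. Their median log2 fold change was -0.27, against -0.11 over all genes. The lists were chosen with earlier results of these data known, so these shares describe the listed genes and test nothing. Markers of proximal tubule, a segment rich in fatty acid oxidation, were lower in the same samples, and their part in these counts was not tested.

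Among genes of fatty acid uptake, activation and binding, 2 of 12 were higher, 4 lower and 6 not called. The acyl-CoA synthetases Acsl4 and Acsl5, which activate fatty acids, were 2.28-fold and 2.25-fold higher (limma adjusted p = 0.00357 and 0.00183). Acsl5 read 11.59 to 11.66 in the knockout and 10.13 to 10.91 in the wild-type. The transporter and very long-chain synthetase Slc27a2 was 1.73-fold lower (log2 fold change -0.79, SE 0.08). Without wild-type 2 the higher genes of this list numbered 5, and without knockout 1 the lower ones numbered 2. The list median was -0.13.

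Among the partners of lipoprotein lipase and lipoprotein receptors, 5 of 9 were higher and 3 lower, with a median of 0.33. Apoc2, the cofactor that lipoprotein lipase needs, was 3.32-fold higher (log2 fold change 1.73, SE 0.25, limma adjusted p = 0.00122). Its values were 7.68, 7.74 and 6.93 in the knockout, against 6.10, 5.41 and 5.65 in the wild-type. Apoc3, an inhibitor of the lipase, and Vldlr, a receptor for triglyceride-rich lipoproteins, were 1.70-fold and 1.55-fold higher. Vldlr lost its call without knockout 3 (adjusted p = 0.0526) and was at 0.33 on the log2 scale as the mean of its 6 probe sets, and without that array 3 genes of the list were higher. Apoa5, an activator of the lipase, was 1.40-fold lower. Gpihbp1, the endothelial anchor of the lipase, named after its value was seen, had a log2 fold change of 0.40 (limma adjusted p = 0.00616), opposite to that of Lpl.

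Among genes of glycerolipid synthesis, 7 of 12 were lower and 2 higher, with a median of -0.35. Mogat2, a monoacylglycerol acyltransferase that makes the substrate of the DGAT enzymes, was 2.72-fold lower and read 7.42 to 7.83 in the knockout, against 8.92 to 9.34 in the wild-type. Lpin1, a phosphatidate phosphatase, was 2.09-fold lower and Gpam, the mitochondrial glycerol-3-phosphate acyltransferase, 1.69-fold lower. Agpat5 was 1.41-fold higher, and its other probe sets were called in opposite directions. The brighter of them was higher (log2 fold change 0.47), and a dim one, at 3.92 in the knockout and 4.27 in the wild-type, was lower (-0.36). The mean of its 3 probe sets gave 0.20 and was not called (adjusted p = 0.0767). The higher genes numbered 1 without knockout 2, without knockout 3, without wild-type 1 and without wild-type 3.

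Among droplet coat and droplet formation genes, 5 of 9 were lower and 2 higher, with a median of -0.29. Fitm1 and Cideb, which act in droplet formation and in droplet and lipoprotein handling, were 2.53-fold and 2.41-fold lower. Plin5, the perilipin of oxidative tissues, was 1.64-fold lower (log2 fold change -0.71, limma adjusted p = 0.00550). Plin3, a perilipin that binds nascent droplets, was 1.47-fold higher and read 9.76 to 9.96 in the knockout, against 9.14 to 9.53 in the wild-type. Hilpda, a droplet protein induced by hypoxia and an inhibitor of ATGL, named after its value was seen, was 1.35-fold higher, a call that ended without knockout 2, knockout 3, wild-type 1 or wild-type 2 (limma adjusted p = 0.0527 to 0.0765). The higher genes numbered 1 without knockout 2, knockout 3, wild-type 1 or wild-type 2. Measured perilipins thus went both ways, Plin2 and Plin3 higher and Plin5 lower, with Plin4 not called.

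In the lipolysis list 3 of 6 genes were lower and none was higher, with a median of -0.43. Mgll, monoacylglycerol lipase, was 2.58-fold lower, Lipe, hormone-sensitive lipase, 1.68-fold lower and Lipa, the lysosomal acid lipase, 1.68-fold lower. Mgll read 10.49 in wild-type 2, against 8.86 and 9.18 in the other wild-type arrays and 7.81 to 8.58 in the knockout, and without wild-type 2 its log2 fold change was -0.88, against -1.37 with all arrays. Its call ended without knockout 1 (adjusted p = 0.0732) or knockout 2 (adjusted p = 0.0841). That of Lipe ended without knockout 1, knockout 2, wild-type 2 or wild-type 3 (adjusted p = 0.0504 to 0.0918). Without knockout 1 or knockout 2 the lower genes of this list numbered 1.

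Among transcriptional regulators of lipid use, 6 of 8 were lower and none higher, with a median of -0.66. Ppara, the nuclear receptor that drives fatty acid oxidation, was 2.38-fold lower and read 8.77 to 9.07 in the knockout, against 9.97 to 10.34 in the wild-type. Its coactivator Ppargc1a was 1.75-fold lower and the oxysterol receptor Nr1h3 1.67-fold lower. Pparg, the receptor of adipocyte differentiation, named after its value was seen, had a log2 fold change of 0.14 and was not called (limma adjusted p = 0.572). Without wild-type 2, 1 gene of this list was higher.

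**Figure D5:**
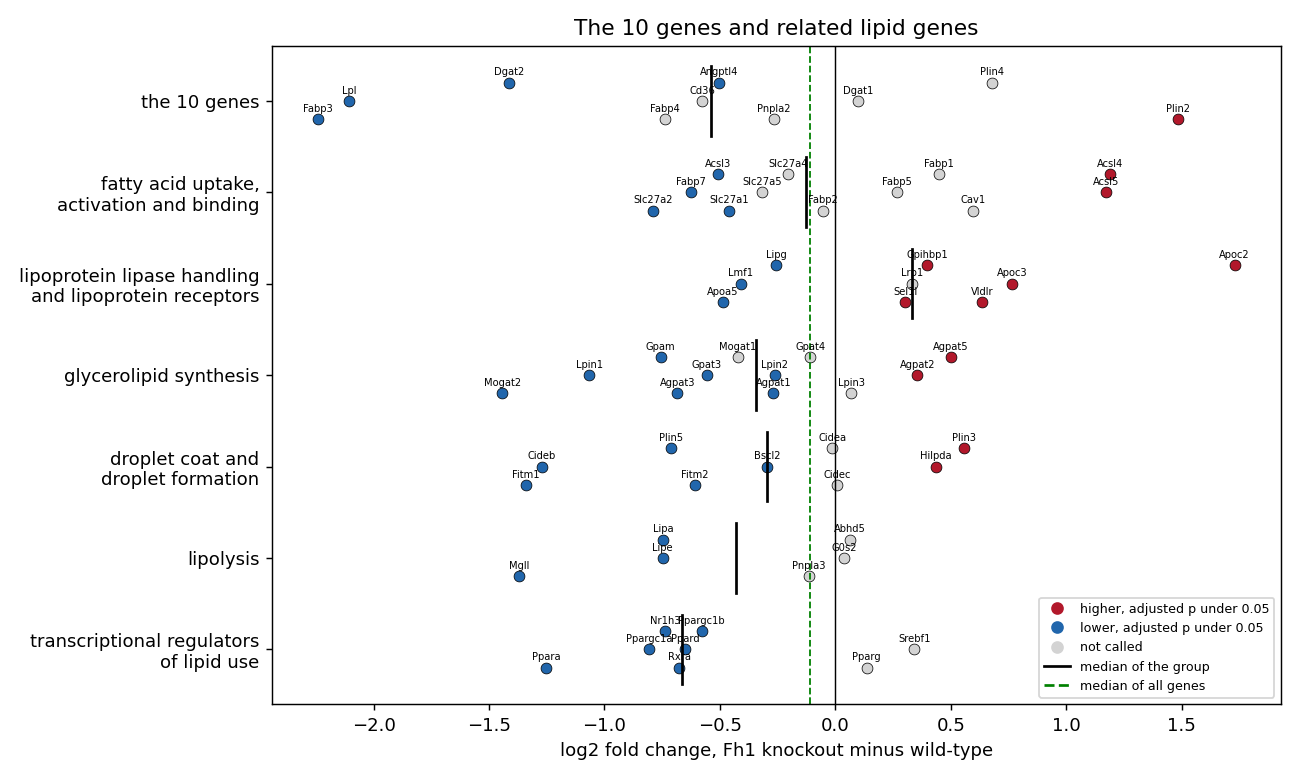
Log2 fold change (horizontal axis, Fh1 knockout minus wild-type) of the 10 genes and of the measured genes of 6 related lists, 1 point a gene, red higher, blue lower and grey not called by limma. Black bars are group medians and the green line is the median of all genes. Medians run from -0.66 for the regulators to 0.33 for the lipoprotein lipase partners.

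Markers of several cell types that use or store fatty acids differed between the groups, with summed levels given on the linear scale of RMA. No measured adipocyte marker was called with all arrays. Of 12 proximal tubule markers 11 were lower and none higher (sums 28474 to 31963 in the knockout, 81028 to 87477 in the wild-type), with Slc6a19 and Slc5a12 7.29-fold and 6.68-fold lower. Of 10 distal nephron markers 8 were lower and none higher (sums 27338 to 35815 in the knockout, 61350 to 70880 in the wild-type), among them Pvalb and Egf (log2 fold changes -3.65 and -3.60). Of 14 macrophage markers 13 were higher and none lower (sums 11713 to 15809 in the knockout, 4731 to 6244 in the wild-type), with Laptm5 and C1qb at 5.08-fold and 4.86-fold by their brightest probe sets. As the mean of all probe sets of the gene the log2 fold change of Laptm5 was 0.65, against 2.34, with 3 of its 5 probe sets not called, and that of C1qb was 2.53, against 2.28. Macrophages are also known to express Plin2, Lpl, Cd36 and Fabp4.

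Of 13 endothelial markers 7 were lower and 3 higher (sums 4633 to 5297 in the knockout, 6017 to 7459 in the wild-type). Ehd3 was 2.26-fold and Emcn 1.76-fold lower, and the call of Emcn ended without knockout 1 (adjusted p = 0.0675), where 4 endothelial markers were lower. Without knockout 2 or knockout 3 the higher endothelial markers numbered 1. Of 8 fibroblast markers 5 were higher (sums 7065 to 15204 in the knockout, 3727 to 4559 in the wild-type), with Col3a1 6.77-fold and Col1a1 5.25-fold higher, and 1 was lower without knockout 3. Of 5 podocyte markers 3 were lower (sums 1259 to 1448 in the knockout, 2085 to 2396 in the wild-type), with Nphs1 2.24-fold and Podxl 1.85-fold lower. The part of these cell types in the values of the 10 genes was not tested.

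Markers of brown adipocytes and striated muscle, tissues rich in Fabp3, Plin4 and Plin5, were mostly not called. Of 4 brown adipocyte markers 1 was lower (sums 219.3 to 398 in the knockout, 485 to 684 in the wild-type), Cox7a1 at 2.76-fold, and Ucp1 had a log2 fold change of -0.26 (limma adjusted p = 0.380). Cox7a1 was the brightest of the 4 on every array (8.59 to 9.22 in the wild-type), so it weighs most in these sums. Without knockout 3, 3 of the 4 were lower. Of 5 striated muscle markers 1 was lower (sums 202 to 237 in the knockout, 243 to 252 in the wild-type), Ckm at 1.55-fold, and Myl1 had a log2 fold change of -0.15 and was not called. All 5 were dim, with means over all arrays of 4.07 to 6.17 on the log2 scale, below the lowest array median of 6.20. Krt18 and Krt8, keratins of simple epithelium, were 6.67-fold and 2.67-fold higher.

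Over the 6 arrays the genes whose values followed Plin2 most closely among all genes were Ammecr1l, Crim1 and Zdhhc21, with Pearson correlations of 0.9996, 0.998 and 0.996. Those most like Fabp3 were Nkx2-1, Ppp1r1a and Slc16a7, with correlations of 0.9991, 0.9988 and 0.9988. These coefficients describe 6 points in 2 groups, and the difference between the groups is part of them. They do not measure the size of a change. Log2 fold changes were 0.51 for Ammecr1l, 0.62 for Crim1 and 0.78 for Zdhhc21, against 1.48 for Plin2. For Nkx2-1, Ppp1r1a and Slc16a7 they were -0.35, -2.29 and -2.25, against -2.24 for Fabp3. A correlation above 0.9 with Plin2 was shared by 1199 genes and with Fabp3 by 2448 genes.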

How the data were processed

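The deposited table holds 45101 probe sets and 6 samples, 1 array a sample. Its log2 values, a scale read from the values themselves, were made by the authors with RMA per the submitters' processing notes. No version or chip definition is given in the sources used here. For arrays, the 3 samples of each group limit the precision.

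Besides 64 controls, 34945 probe sets listed exactly 1 gene, 932 several and 9160 none. Symbols were updated by Entrez identifier to RefSeq of GRCm38.p6 for 34741 probe sets, and 204 kept the older symbol. The brightest probe set stood for each of 18193 genes. The groups were compared by linear models with moderated variances (lmFit and eBayes, limma 3.58.1 under R 4.3.3), two-sided, without covariates or a filter on low values. Benjamini-Hochberg adjustment ran over all 18193 genes, or over 45037 probe sets where other probe sets of a gene are given, with a threshold of 0.05. The code was tested on simulated data. Plots were drawn with matplotlib 3.10.9 in Python 3.11.15.

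The members and the lists were chosen with earlier results of these data known. From each related list the text names the 3 called genes of largest change and the most changed one of opposite sign, from each marker list the 2 of largest change, and the 3 genes most correlated with the most raised and the most lowered member. Nothing says that samples of a group are separate animals, so that p-values cover only the spread among these samples, which may be technical. Alternatives were a replicate block, leaving out each array, the mean of a gene's probe sets, the brighter genes only, a trended robust prior, median-centring, quantile normalisation, array weights and stricter thresholds.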

Additional observations from a re-analysis of the deposited data

How the results depend on the processing

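The count of members lower in the knockout (4) stayed between 3 and 5 with each array left out and under the other settings run on all 6 arrays. The count higher (1, Plin2) was 0 with a trended robust prior and at an adjusted p of 0.01, 0 to 2 with each array left out, and 2 without both knockout 3 and wild-type 2, where 6 were lower. That last setting was chosen after seeing the data. Related lipid genes higher in the knockout (11) numbered 7 at an adjusted p of 0.01, 3 with a change of at least 1 also asked for, and 7 to 14 with each array left out. Those lower (28) numbered 17 at an adjusted p of 0.01, 6 with the change of at least 1 and 20 to 25 with each array left out. With the replicate number as a block (replicate block), the members numbered 1 higher and 4 lower, and the related genes 10 higher and 25 lower. Across genes, deviations from the group mean correlated at -0.10, -0.13 and -0.13 between same-numbered knockout and wild-type samples. Between samples of different number the correlations were 0.006 to 0.093. These correlations cannot show whether the numbers pair the samples, which is not known here. The block changed no call of a member. Calls over all genes fell to 3510 higher and 3930 lower with the block.

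All reversals were of genes that were not called with all arrays, and their cause was not tested. Log2 fold changes with each array left out ran from -0.48 to 0.65 for Retn, from -0.68 to 0.65 for Cidec, from -0.45 to 2.09 for Fabp1 and from -0.071 to 0.30 for Pparg. Those of Adipoq turned to 0.054 without wild-type 2 (range -3.07 to 0.054). Cidec was -0.070 after centring and -0.17 with array weights. Without knockout 3 and wild-type 2, Cidec was -0.036, Retn -0.38 and Fabp1 2.12. Plin4 was below the median signal, so it has no value among the brighter genes. The intervals of Fabp4, Cd36 and Plin4 span 0, and 3 arrays a group do not settle their direction.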

Other observations

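Fabp1, the liver-type fatty acid binding protein that proximal tubule cells can make, was named after its values were seen. It read 7.12, 6.86 and 6.89 in the knockout, against 5.05, 9.78 and 4.70 in the wild-type. Wild-type 2 stood far above every other array, and the knockout arrays lay between it and the other wild-type arrays. With all arrays the log2 fold change was 0.45 (limma adjusted p = 0.761), and without wild-type 2 it was 2.09 (adjusted p = 7.11e-05). The other Fabp1 probe set went the other way with all arrays, at -0.16, and was not called (limma adjusted p = 0.892 over all probe sets).

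The brown adipocyte marker and droplet protein Cidea read 4.37, 4.52 and 7.30 in the knockout, against 5.81, 5.06 and 5.37 in the wild-type, with knockout 3 the high array.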
